A study of Homo sapiens with 30 samples.

Results

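The WNT ligands WNT11, WNT5A, WNT7A, WNT7B and WNT10A and the WNT response and feedback genes DKK1, RNF43, AXIN2, LEF1 and TCF7 were followed by RNA-seq in 5637 cells, a human bladder carcinoma cell line. The genes were listed by symbol and read from each of the 3 count tables, which gave 10 of 10 in each, out of 60612 genes in the knockout table and 56303 genes in each of the overexpression and knockdown tables. The group was chosen on the values of siANKRD10-1 against siNC, in which WNT11 was higher, so those values are given below only as a description.

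In the knockout experiment, KO1 and KO2 cells (genotype RBPMS-KO, made with different sgRNAs) were set against WT1 and WT2 cells. RBPMS is an RNA-binding protein, and the study describes the knockouts as expanded from single clones, so each stands for 1 line. In the overexpression experiment, ANKRD10-1 and ANKRD10-2, the products of 2 splice forms of ANKRD10, were compared with Vector, and in the knockdown experiment siANKRD10-1 and siANKRD10-2 were compared with siNC, the control siRNA. Each of the 10 groups had 3 libraries, and no age or further treatment is given. For ANKRD10-1 overexpression and for siANKRD10-2 the study's text names RBPMS-knockout cells, whereas the labels give 5637 alone, and which cells were used is not settled. RBPMS itself was at 3.57 to 5.10 CPM (counts scaled to a library total of 1000000) in the ANKRD10-1 libraries and at 4.86 to 5.58 CPM in Vector (log2 fold change -0.19, adjusted p = 0.472 by edgeR). With siANKRD10-2 it was at 5.10 to 5.25 CPM and in siNC at 4.39 to 5.95 CPM (log2 fold change 0.03, adjusted p = 0.894 by edgeR).

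WNT proteins are secreted, lipid-modified ligands that bind Frizzled receptors. In the canonical branch, with the co-receptors LRP5 and LRP6, they stop the destruction complex from degrading beta-catenin, which then acts on target genes with the TCF/LEF factors. WNT11 and WNT5A are mostly known for signalling without beta-catenin, in cell polarity and movement, and WNT7A, WNT7B and WNT10A for the canonical branch in epithelia. DKK1, RNF43 and AXIN2 are negative regulators that are themselves induced by the pathway in many cell types.

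Total counts were 44593108 to 69723937 in the 12 knockout libraries, 31736779 to 47493499 in the 9 overexpression libraries and 28511029 to 32784584 in the 9 knockdown libraries. The targeted genes were checked first. RBPMS was at 14 to 15 CPM in KO1 against 40.0 to 42.8 in WT1 (log2 fold change -1.44, adjusted p = 1.25e-07, edgeR) and at 18.7 to 20.7 CPM in KO2 against 43.0 to 44.9 in WT2 (-1.09, adjusted p = 5.07e-08). ANKRD10 counts, which sum its splice forms, were higher than in Vector with ANKRD10-1 (log2 fold change 0.67) and with ANKRD10-2 (0.41) and lower than in siNC with siANKRD10-1 (-0.24) and siANKRD10-2 (-0.25). They were also lower in KO1 than in WT1 (-1.18, adjusted p = 6.55e-08, edgeR) and in KO2 than in WT2 (-0.76, adjusted p = 3.98e-08). The 7 epithelial markers summed to 2764 to 5435 CPM, whereas the 3 fibroblast markers summed to 26.6 to 54.0 CPM, the 2 endothelial markers to 0.918 to 3.00 CPM and the 2 leukocyte markers to 0 to 0.413 CPM. Some of these sums moved with the groups. The epithelial sum was 5352 to 5435 CPM in siNC, 4419 to 4636 with siANKRD10-1 and 3275 to 3409 with siANKRD10-2, while the fibroblast sum, nearly all of it COL1A1, was 26.6 to 29.6, 30.6 to 32.1 and 32.8 to 34.5 CPM. In KO1 the fibroblast sum was 31.9 to 37.8 CPM against 48.6 to 54.0 in WT1, with COL1A2 at no more than 0.0940 CPM in the knockout table. In KO2 the epithelial sum was 3555 to 3705 CPM against 3729 to 3975 in WT2, and the fibroblast sum 48.7 to 50.5 against 51.3 to 52.7. With ANKRD10-1 and ANKRD10-2 the epithelial sum was 2989 to 3124 and 2989 to 3405 CPM, above the 2764 to 2952 of Vector. The fibroblast sum of ANKRD10-1, 49.9 to 52.7 CPM, was also above the 46.8 to 48.7 of Vector. The part of these shifts in the WNT results below was not tested.

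RefSeq promoters (300 bases around the start, GRCh38.p14) were searched for letters that TCF/LEF factors are known to bind. WNT11, WNT7B and AXIN2 have no promoter in that set and were not searched, whereas RNF43, TCF7 and WNT5A have more than 1. Among the genes searched, DKK1 and TCF7 held such letters, TCF7 in only 1 of its promoters. The first form searched, on both strands, was CTTTGAA, which is in 4.428% of all 35116 promoters. The form CTTTGTT is in 5.2%. The remaining forms were CTTTGAT, in 2.617%, and CTTTGTA, in 2.771%. At least 1 of the 4 forms is in 13.752%. They were found in 2 of the 10 promoters of the genes here and in 5 of the 91 promoters of other WNT pathway genes in the RefSeq set. These are counts of promoters, and some genes have more than 1. The sites are shown with their flanks because DKK1 is the response gene with the smallest adjusted p in the comparisons below and TCF7 passed no test. Capitals mark the searched letters, and for TCF7 they lie on the opposite strand.
DKK1 first site: cctcccagcgCTTTGAAatcccatccc
DKK1 second site: cccatcccggCTTTGTTgtctccctcc
TCF7 site: gccccactggAACAAAGgaggagagag
The DKK1 windows are at chr10:52314176-52314202 and chr10:52314195-52314221, plus strand, and overlap each other. They lie 94 and 75 bases before the annotated start of DKK1, in an exon of the antisense gene PRKG1-AS1. The TCF7 window is at chr5:134123558-134123584, plus strand, within the span of the TCF7 gene but in none of its annotated exons. A MYC-type E-box, CACGTG, was in 0 of the 10 promoters searched, which include none of WNT11, WNT7B or AXIN2, and in 7.256% of all promoters. A match of letters is a description of the sequence and says nothing of binding.

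Per length of exon (RPKM), WNT7A was the most abundant of the 10 transcripts in each of the 4 control groups, at 11.7 ± 0.84 in WT1, 9.49 ± 0.50 in WT2, 5.29 ± 0.80 in Vector and 4.95 ± 0.29 in siNC (mean ± SD, n = 3). DKK1 and WNT5A followed in both knockout controls and in siNC, and their order did not separate beyond the spread in WT2 (7.15 ± 0.57 and 7.5 ± 0.29) or in siNC (2.17 ± 0.21 and 2.14 ± 0.22). WNT10A and TCF7 lay within their spread in WT1 (2.02 ± 0.17 and 1.88 ± 0.22), and WNT11 and TCF7 did in WT2 (2.16 ± 0.29 and 2.06 ± 0.086). AXIN2 was at the bottom of the order or next to it in each control group, at 0.0205 to 0.0378 RPKM. The 3 tables were made separately, so levels were not compared between them.

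**Figure D1:**
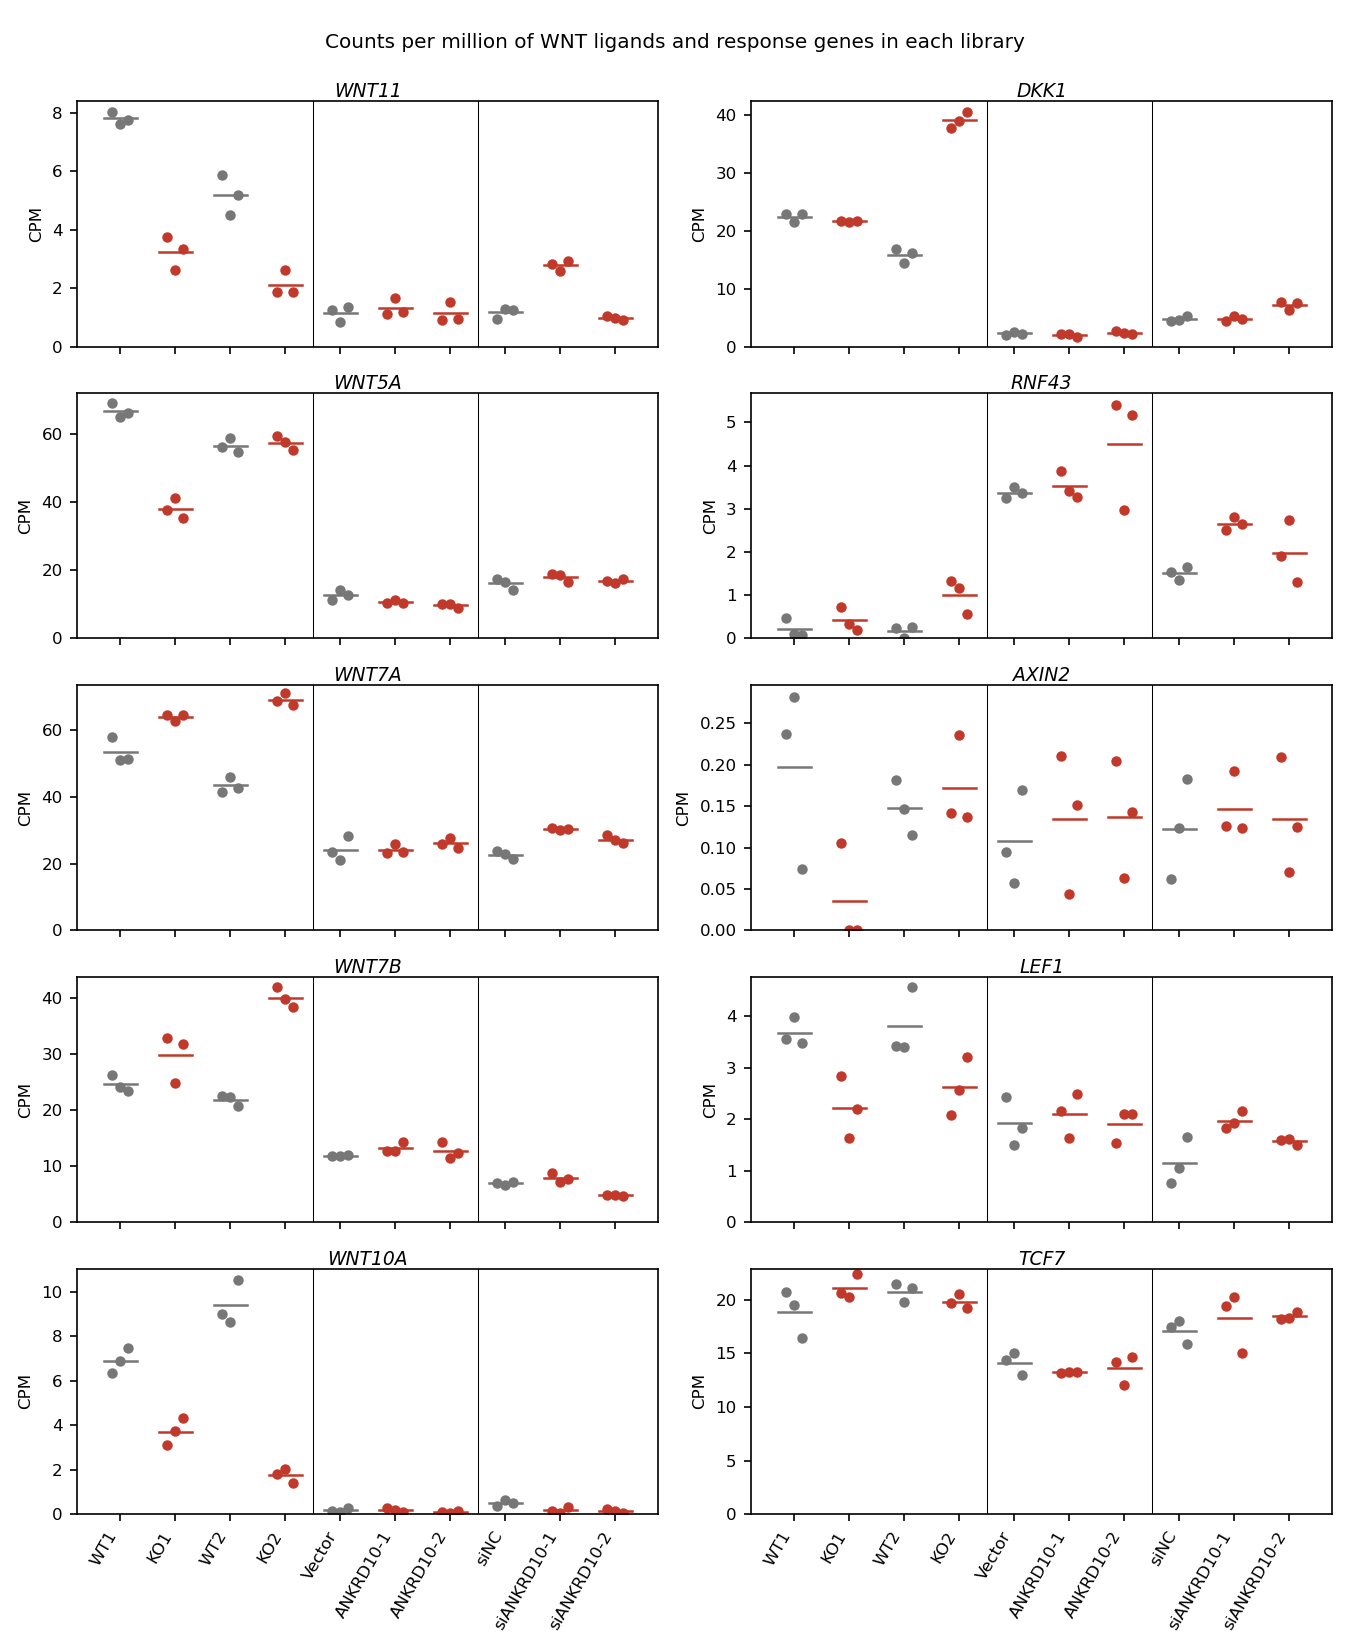
Counts scaled to a library total of 1000000 (CPM, vertical axes, linear) of the 10 genes in each of the 30 libraries, with 1 point per library, a bar at the group mean, controls in grey and treated groups in red. Vertical lines part the knockout, overexpression and knockdown tables, which were made separately. The WNT11 points of KO1 and KO2 lie below those of WT1 and WT2, and those of siANKRD10-1 lie above siNC.

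Counting by edgeR's quasi-likelihood test at an adjusted p under 0.05, 6 of 9 genes tested differed between KO1 and WT1 (2 higher, 4 lower), where 36.1% of all genes tested differed. In KO2 against WT2 the count was again 6 of 9 (4 higher, 2 lower), beside 38.5% of all genes. Among these higher calls, RNF43 passed the count filter only through KO2. ANKRD10-1 overexpression gave 0 of 8, beside 6.31% of all genes, and with no adjustment 1 of 8 (WNT7B) had p under 0.05; DESeq2 also called 0. ANKRD10-2 overexpression gave 1 of 8, beside 19.9%. For siANKRD10-2 against siNC the count was 4 of 9 (2 higher, 2 lower), close to the 36.3% of all genes. There 1 of the lower calls, WNT10A, passed the count filter only through siNC. AXIN2 was under the count filter in each of these 5 comparisons, and WNT10A in both overexpression comparisons, so neither was tested there. Lower counts of a transcript in bulk RNA cannot be told apart from fewer cells that express it.

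WNT11 fell in both knockouts. Its levels were 3.76, 2.62 and 3.35 CPM in KO1 and 8.04, 7.63 and 7.77 CPM in WT1. In KO2 they were 1.88, 2.64 and 1.86 CPM and in WT2 5.89, 4.52 and 5.18 CPM. Every knockout library was below every library of its control. The fall was 2.33-fold in KO1 (log2 fold change -1.22 ± 0.16 SE, adjusted p = 0.000176, edgeR) and about as large in KO2 (-1.25 ± 0.20, adjusted p = 0.000318). The difference between these effects was 0.03 on the log2 scale, with a 95% confidence interval from -0.50 to 0.56 (adjusted p = 0.958). Leaving out any 1 library kept both calls, with log2 fold changes from -1.33 to -1.09 in KO1 and from -1.43 to -1.15 in KO2. Over all 12 alternatives tried, the calls were kept and the range widened to -0.95 in KO1 and to -1.57 in KO2. The likeness of the falls is thus for each knockout against its own control.

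In the knockdown experiment, the siANKRD10-1 libraries held 2.83, 2.59 and 2.92 CPM of WNT11, and the siNC libraries 0.956, 1.30 and 1.25 CPM. These were 81 to 95 counts against 31 to 42. All 3 siANKRD10-1 libraries lay above siNC, with a fitted ratio of 2.38 (log2 fold change 1.25 ± 0.21 SE). This is the difference for which the group was chosen, so it carries no test. The siANKRD10-2 libraries, at 1.04, 0.982 and 0.902 CPM, overlapped siNC. Their log2 fold change was -0.29 (95% confidence interval -0.88 to 0.30, adjusted p = 0.47, edgeR), against the same siNC libraries. Between the siRNAs, siANKRD10-2 lay 1.54 below siANKRD10-1 on the log2 scale, again as a description. In the overexpression experiment, WNT11 was at 0.834 to 1.36 CPM in Vector, 1.12 to 1.65 with ANKRD10-1 and 0.918 to 1.54 with ANKRD10-2, and the groups overlapped. The log2 fold changes were 0.23 (adjusted p = 0.668) and 0.03 (adjusted p = 0.955). Thus WNT11 stood apart from its control in KO1, KO2 and siANKRD10-1, lower in the knockouts and higher with the siRNA. The antisense gene AP000785.1 overlaps 8.50% of the exon bases of WNT11.

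Across the 30 libraries, the genes whose level relative to their own control moved most like WNT11 were STEAP4, a metalloreductase (Pearson r = 0.90), ACSL4, which activates long-chain fatty acids (0.89), INSR, the insulin receptor (0.88), the serine protease PRSS23 (0.87) and STEAP3, another metalloreductase (0.86). They were picked as the 5 highest of 11668 genes, and the libraries share control means and the choice of WNT11. Their log2 fold changes differed in size. STEAP4 was at -1.44 in KO1, -1.13 in KO2 and 0.85 with siANKRD10-1, whereas ACSL4 was at -0.45, -0.37 and 0.23 and INSR at -0.66, -0.38 and 0.19. With siANKRD10-2 STEAP4 was at -0.81 and PRSS23 at 0.33, beside -0.29 for WNT11.

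WNT5A differed between the knockouts. It was at 37.5, 41.3 and 35.2 CPM in KO1 against 68.9, 65.0 and 66.2 CPM in WT1, with no overlap. In KO2 it was at 59.4, 57.5 and 55.4 CPM against 56.1, 58.8 and 54.5 CPM in WT2, and these groups overlapped. It fell in KO1 (log2 fold change -0.77 ± 0.07 SE, adjusted p = 7.84e-06, edgeR), whereas KO2 gave 0.07 (95% confidence interval -0.04 to 0.17, adjusted p = 0.315). The difference between the effects was -0.84 (adjusted p = 1.15e-06). With ANKRD10-2, WNT5A was at 9.99, 10.2 and 8.86 CPM, below the 11.1, 14.2 and 12.7 CPM of Vector. This was the 1 gene called there, at the edge of the threshold (log2 fold change -0.31 ± 0.10, adjusted p = 0.0498), and the call was lost with DESeq2 size factors (adjusted p = 0.0508) and without ANKRD10-2 replicate 1, 2 or 3 or Vector replicate 2 or 3 (adjusted p up to 0.203). ANKRD10-1 libraries were at 10.3, 11.3 and 10.5 CPM (log2 fold change -0.19, adjusted p = 0.25). In the knockdown table WNT5A lay between 14.3 and 18.8 CPM in all 9 libraries, and siANKRD10-2 gave a log2 fold change of 0.04 (adjusted p = 0.748).

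WNT7A and WNT7B, which are close paralogues, were higher in both knockouts than in their own controls, with the larger log2 fold changes in KO2. WNT7A was at 64.6, 62.7 and 64.5 CPM in KO1 against 58.0, 51.1 and 51.5 CPM in WT1. In KO2 it was at 68.8, 71.1 and 67.6 CPM against 41.6, 46.0 and 42.8 CPM in WT2. Neither knockout overlapped its control. The log2 fold change was 0.30 ± 0.06 SE in KO1 (adjusted p = 0.00216, edgeR) and 0.71 ± 0.05 in KO2 (adjusted p = 4.56e-07), a difference of -0.41 (adjusted p = 0.000746). Over the 12 alternatives tried, the WNT7A value ranged from 0.27 to 0.45 in KO1 and from 0.56 to 0.75 in KO2. WNT7B was at 32.9, 24.8 and 31.8 CPM in KO1 and 26.3, 24.1 and 23.4 CPM in WT1. Here the groups overlapped, since KO1 replicate 2 lay within WT1. In KO2, at 41.9, 39.8 and 38.4 CPM, it was well above the 22.5, 22.3 and 20.8 CPM of WT2. The rise of WNT7B was 0.92 ± 0.06 on the log2 scale in KO2 (adjusted p = 1.89e-07) and 0.33 ± 0.10 in KO1 (adjusted p = 0.0275), and the effects differed by -0.59 (adjusted p = 0.00209). The KO1 call was lost without the filter on low counts (adjusted p = 0.0528) and without KO1 replicate 1 or 3 or WT1 replicate 2 or 3 (adjusted p up to 0.114).

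After siANKRD10-2, WNT7A and WNT7B went opposite ways. WNT7B fell from 6.97, 6.62 and 7.14 CPM in siNC to 4.77, 4.84 and 4.76 CPM (log2 fold change -0.56 ± 0.12 SE, adjusted p = 0.000705, edgeR). WNT7A rose from 23.9, 22.8 and 21.3 CPM to 28.7, 27.0 and 26.1 CPM (0.24 ± 0.07, adjusted p = 0.00918), a call lost without siANKRD10-2 replicate 1 (adjusted p = 0.0609). Neither gene's groups overlapped. The siANKRD10-1 libraries, described without a test, held 30.1 to 30.6 CPM of WNT7A and 7.19 to 8.80 CPM of WNT7B, both above siNC. In the overexpression table WNT7A spanned 21.0 to 28.2 CPM and WNT7B 11.5 to 14.3 CPM over the 9 libraries. No adjusted p there was under 0.05, with log2 fold changes of 0.04 and 0.18 for WNT7A and 0.20 and 0.19 for WNT7B with ANKRD10-1 and ANKRD10-2. Without Vector replicate 3, WNT7A with ANKRD10-2 was at 0.31 and passed (adjusted p = 0.0192), and without Vector replicate 2 it was at 0.0876.

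WNT10A had the largest fall of the 5 ligands in KO2. It dropped from 9.02, 8.64 and 10.5 CPM in WT2 to 1.80, 2.03 and 1.40 CPM in KO2 (log2 fold change -2.39 ± 0.17 SE, adjusted p = 4.57e-07, edgeR). In KO1 it was at 3.12, 3.72 and 4.31 CPM against 6.33, 6.90 and 7.46 CPM in WT1 (-0.85 ± 0.17, adjusted p = 0.00243). Neither knockout overlapped its control, and the effects differed by 1.54 (adjusted p = 0.000167). In the knockdown table the gene was close to the limit of detection, with 12, 20 and 16 counts in siNC and 6, 4 and 2 counts with siANKRD10-2. The fitted log2 fold change was -1.87 ± 0.53 SE (adjusted p = 0.00702, edgeR), and the call was lost without siANKRD10-2 replicate 3 (adjusted p = 0.0619). Here WNT10A passed the count filter only through the siNC libraries, where it was higher, so this call does not stand as a test of a fall. The siANKRD10-1 libraries held 4, 2 and 10 counts, also below siNC. In the overexpression table it had 1 to 14 counts per library and was not tested.

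**Figure D2:**
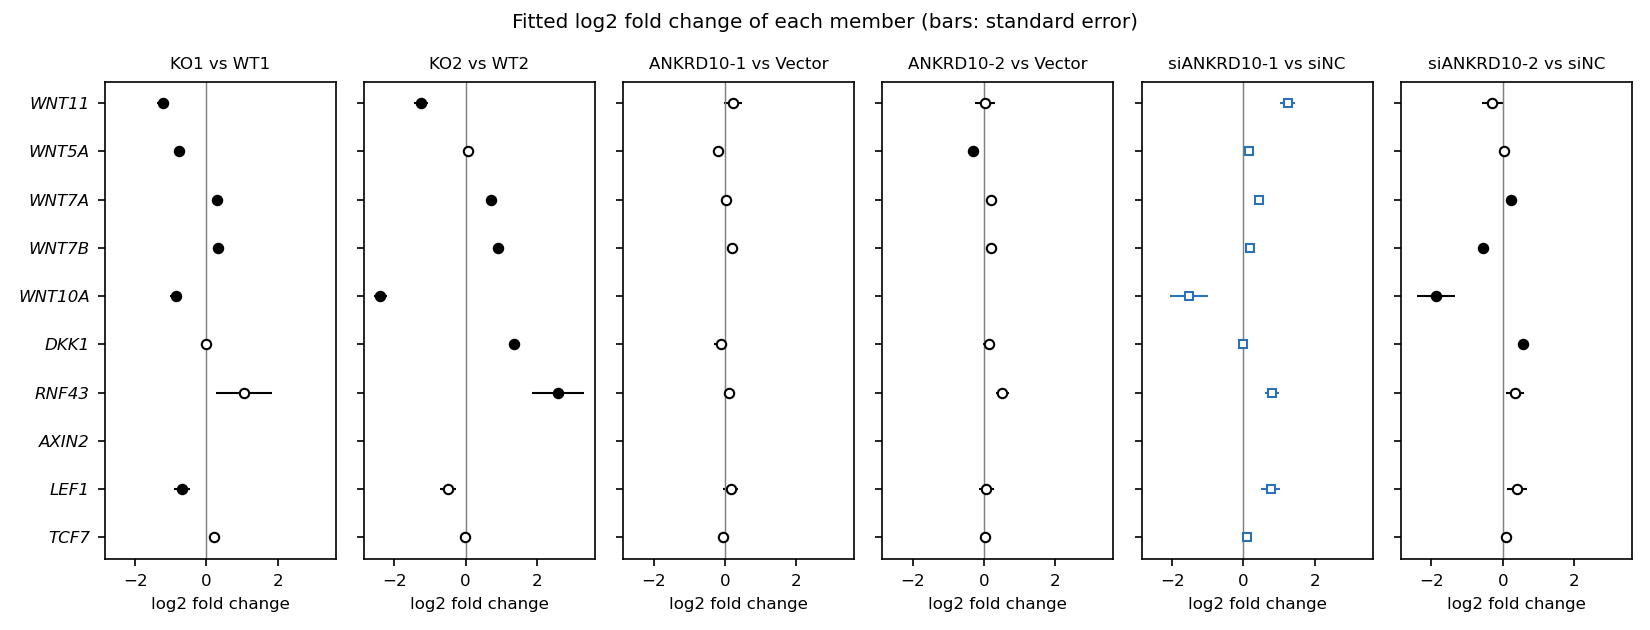
Fitted log2 fold change (horizontal axes) of each gene in 6 comparisons, with bars for the standard error, from 3 libraries against 3. Filled circles passed edgeR's test at an adjusted p under 0.05, open circles did not, blue squares for siANKRD10-1 were not tested, and genes under the count filter have no symbol. WNT11 lies at -1.22 and -1.25 in the knockouts, and DKK1 at 1.35 in KO2 against -0.01 in KO1.

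DKK1, a secreted protein that blocks LRP5 and LRP6, rose in KO2 and after siANKRD10-2. In KO2 it was at 37.8, 38.9 and 40.4 CPM and in WT2 at 16.8, 14.4 and 16.1 CPM (log2 fold change 1.35 ± 0.07 SE, adjusted p = 3.62e-08, edgeR). KO1, at 21.7, 21.4 and 21.7 CPM, overlapped the 22.9, 21.5 and 22.8 CPM of WT1 (-0.01, 95% confidence interval -0.16 to 0.15, adjusted p = 0.938). The effects differed by -1.36 (adjusted p = 5.45e-08). After siANKRD10-2 DKK1 was at 7.76, 6.24 and 7.56 CPM against 4.5, 4.55 and 5.31 CPM in siNC, with no overlap (0.56 ± 0.13, adjusted p = 0.00137). The siANKRD10-1 libraries, at 4.37, 5.21 and 4.68 CPM, overlapped siNC. In the overexpression table it was at 1.58 to 2.65 CPM, and the log2 fold changes were -0.12 with ANKRD10-1 (adjusted p = 0.778) and 0.14 with ANKRD10-2 (adjusted p = 0.641). PRKG1-AS1 overlaps 9.61% of the exon bases of DKK1 on the opposite strand.

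RNF43, a membrane ubiquitin ligase that removes Frizzled receptors, varied between libraries of a group. In the knockout table it had 24, 5 and 5 counts in WT1 and 49, 15 and 10 in KO1, and these groups overlapped in CPM. WT2 had 16, 0 and 18 counts and KO2 75, 59 and 37. The 0 in WT2 replicate 2 allows up to 3 counts. RNF43 was higher in KO2 (log2 fold change 2.59 ± 0.74 SE, adjusted p = 0.0154, edgeR), a call lost without KO2 replicate 1 (adjusted p = 0.0657) or 2 (adjusted p = 0.054). It passed the count filter there only through the KO2 libraries, where it was higher, so this call does not stand as a test of a rise. In KO1 it was 1.05 ± 0.78 (adjusted p = 0.333), and the difference between the effects did not pass the test (adjusted p = 0.417). The KO1 value was 2.34 without WT1 replicate 1 and 0.36 without KO1 replicate 1, and leaving out single libraries put the difference between -2.24 and -0.27, the latter without WT1 replicate 1. With ANKRD10-2 it was at 5.40, 2.96 and 5.16 CPM against 3.24, 3.51 and 3.35 CPM in Vector. ANKRD10-2 replicate 2 lay below Vector and the other two above it. The log2 fold change of 0.51 ± 0.19 did not pass (adjusted p = 0.0703). It passed without that library (adjusted p = 0.00309), and with all libraries kept it passed with no count filter (adjusted p = 0.00942), with the replicate block (adjusted p = 0.0406) and with all libraries of the table in one fit (adjusted p = 0.0431). The siANKRD10-2 libraries, at 1.91, 2.74 and 1.31 CPM, overlapped the 1.54, 1.36 and 1.65 CPM of siNC (0.35, adjusted p = 0.306). The siANKRD10-1 libraries, at 2.51, 2.81 and 2.65 CPM, lay above siNC. Since the gene AC004687.2 covers 57.6% of the exon bases of RNF43 on the same strand, how reads were shared between them is uncertain.

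AXIN2, a scaffold of the destruction complex and a widely used readout of beta-catenin activity, was barely detected. It had 0 to 15 counts per library in the knockout table and 2 to 10 in the other tables. The highest level was 0.282 CPM, in WT1 replicate 2. KO1 had 7, 0 and 0 counts against 12, 15 and 5 in WT1. No difference could be detected at this depth: AXIN2 passed the filter only where all 12 knockout libraries were fitted, and there the KO1 and KO2 effects differed by -2.49 ± 1.43 SE (adjusted p = 0.248, edgeR). Without KO1 replicate 1 this became -6.74 (adjusted p = 0.0255), a fitted value that depends on the prior count, since KO1 was then at 0 counts throughout. The gene AC004805.1 overlaps 25.2% of its exon bases on the same strand.

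LEF1 and TCF7, the DNA-binding factors of the pathway, behaved differently from each other in the knockouts. LEF1 was at 2.83, 1.64 and 2.20 CPM in KO1 against 3.57, 3.99 and 3.47 CPM in WT1, and at 2.09, 2.56 and 3.21 CPM in KO2 against 3.43, 3.40 and 4.58 CPM in WT2. Each knockout lay below its control without overlap. LEF1 fell in KO1 (log2 fold change -0.68 ± 0.23 SE, adjusted p = 0.0369, edgeR), but the call was lost without KO1 replicate 2 or 3 or any 1 of the WT1 libraries (adjusted p up to 0.114), without the count filter (adjusted p = 0.0751) and with the replicate block (adjusted p = 0.0582). KO2 gave -0.49 ± 0.21 (adjusted p = 0.0912), which passed without KO2 replicate 3 (adjusted p = 0.0419) and with all 6 WT libraries as control (adjusted p = 0.0455), and the difference between the effects was -0.19 (95% confidence interval -0.86 to 0.49). In the knockdown table siNC spanned 0.771 to 1.65 CPM. The siANKRD10-1 libraries, at 1.82, 1.92 and 2.16 CPM, lay above that range, while siANKRD10-2, at 1.60, 1.61 and 1.49 CPM, lay within it (0.40, adjusted p = 0.281). LEF1-AS1 overlaps 5.20% of the exon bases of LEF1.

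TCF7 stayed within 15.1 to 22.4 CPM in the knockout and knockdown tables and within 12 to 15 CPM in the overexpression table. Its log2 fold changes were 0.20 in KO1 (95% confidence interval -0.01 to 0.41, adjusted p = 0.121, edgeR), -0.03 in KO2 (-0.17 to 0.12, adjusted p = 0.802) and 0.08 after siANKRD10-2 (-0.08 to 0.24, adjusted p = 0.458). With ANKRD10-1 and ANKRD10-2 they were -0.05 and 0.03. None passed the test. Of LEF1 in the overexpression table, the values were 1.5 to 2.49 CPM over the 9 libraries, with log2 fold changes of 0.16 and 0.06.

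The overexpression groups were also compared directly. ANKRD10-2 against ANKRD10-1 gave 0 of 8 genes called, beside 7.26% of all genes, with 1 of 8 (RNF43) at an unadjusted p under 0.05 and 0 by DESeq2. RNF43 was 0.40 ± 0.18 SE higher on the log2 scale (adjusted p = 0.189, edgeR). It was called, at 0.62 (adjusted p = 0.0129), when ANKRD10-2 replicate 2 was left out. For the siRNAs, compared without a test on these genes, siANKRD10-2 lay below siANKRD10-1 for WNT11 (-1.54), WNT7B (-0.75), LEF1 (-0.35) and WNT7A (-0.18), and above it for DKK1 (0.57), all without overlap. WNT5A, TCF7 and RNF43 overlapped. How many of all genes separate the siRNAs in this way was not counted, so whether this is particular to these genes is not known.

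The direct test of KO1 against KO2 effects called 5 of 10 genes (1 higher in KO1, 4 lower), where 23.3% of all genes were called. These were WNT5A, WNT7A, WNT7B, WNT10A and DKK1. The control groups themselves were not alike for some of them. WT1 was above WT2 in every library for WNT11, WNT5A, WNT7A, WNT7B and DKK1, and below it for WNT10A. The share of all genes that separate WT1 from WT2 in this way was not counted. Whether the separation is particular to these genes is therefore not known.

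**Figure D3:**
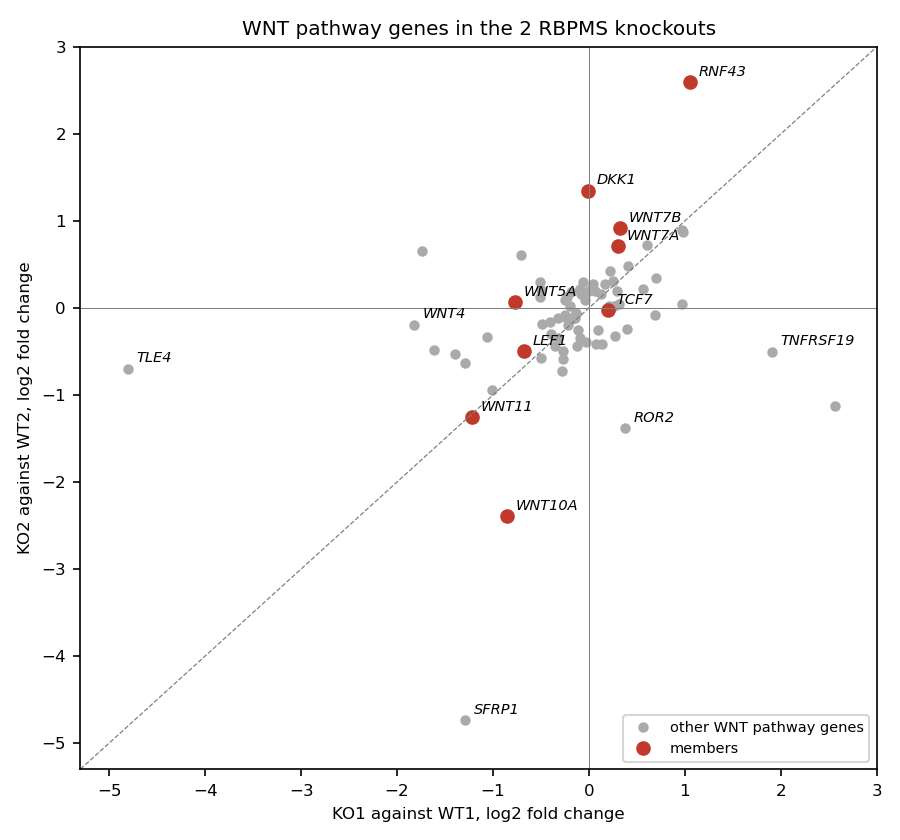
Log2 fold change of WNT pathway genes in KO1 against WT1 (horizontal) and in KO2 against WT2 (vertical), with the 9 genes described in depth in red, other pathway genes in grey, and a dashed line of equal change. WNT11 lies on the line near -1.2, whereas DKK1 (-0.01 and 1.35), TLE4 (-4.80 and -0.70) and SFRP1 (-1.29 and -4.74) lie far from it.

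The rest of the pathway was taken from lists of ligands, ligand release factors, receptors, secreted inhibitors, R-spondin and LGR genes, destruction complex genes, TCF/LEF cofactors, response genes and planar cell polarity genes, with 92 genes beside the 10 above. In KO1 37 of the 71 other pathway genes tested were called (11 higher, 26 lower), with a median log2 fold change of -0.12 against -0.002 for all genes. The share called lower was 36.6%, beside 18.2% of all genes, and 15.5% were higher, beside 17.9%. In KO2 36 of 73 were called (16 higher, 20 lower), with 27.4% lower beside 19.2% of all genes and 21.9% higher beside 19.3%. With ANKRD10-1 2 of 71 were called, both higher, and with ANKRD10-2 14 of 70 (6 higher, 8 lower). After siANKRD10-2 it was 21 of 64 (11 higher, 10 lower). The ANKRD10-2 count became 9 without ANKRD10-2 replicate 1 or 2, 6 without Vector replicate 1 and 8 without Vector replicate 2, and that of siANKRD10-2 became 12 without siANKRD10-2 replicate 2. For ANKRD10-1 the share called was 2.82%, beside 6.31% of all genes (3.5% higher, 2.81% lower). With ANKRD10-2 11.4% were lower, beside 9.25% of all genes, and 8.57% higher, beside 10.7%. After siANKRD10-2 the shares were 17.2% higher and 15.6% lower, beside 17.6% and 18.7%.

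**Figure D4:**
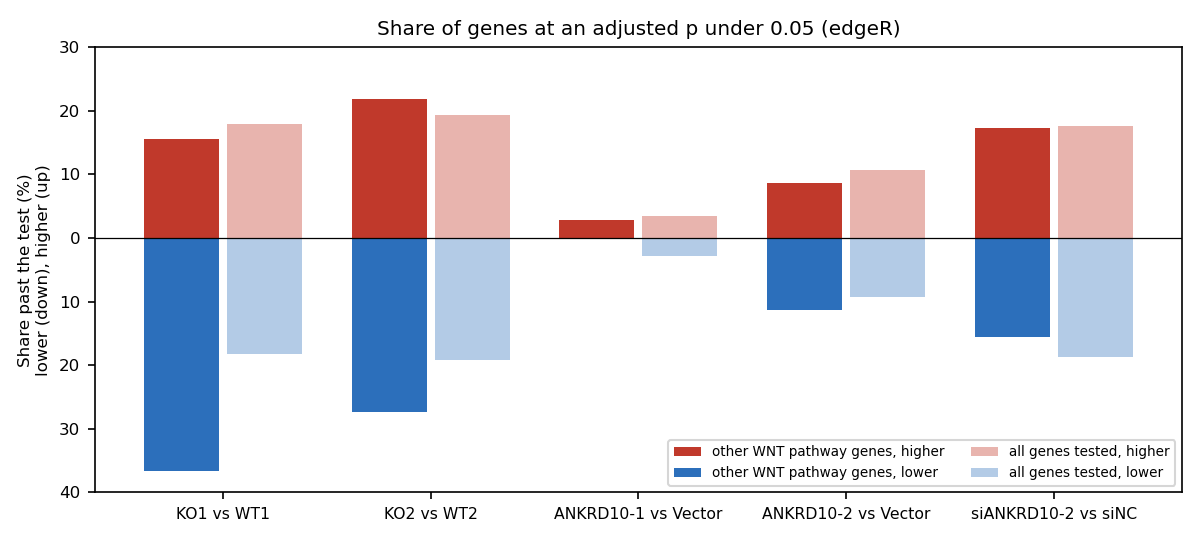
Share of genes that passed edgeR's test at an adjusted p under 0.05 (percent), higher above the line and lower below it, for the WNT pathway genes other than the 10 (dark bars) and for all genes tested (pale bars) in 5 comparisons. The dark lower bar is longest in KO1, at 36.6% against 18.2%.

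The largest change among the named pathway genes in KO1 was a fall. TLE4, a corepressor that binds TCF/LEF factors, fell from 15.5 to 0.534 CPM (mean, n = 3; log2 fold change -4.80 ± 0.19 SE, adjusted p = 3.11e-08, edgeR). The ligands WNT4 (-1.82, adjusted p = 7.24e-05) and WNT2B (-1.74, adjusted p = 0.00281) fell too. In KO2 TLE4 fell by less (-0.70, adjusted p = 0.000602; difference -4.11, adjusted p = 3.34e-09), and WNT4 was at -0.19 (adjusted p = 0.404; difference -1.63, adjusted p = 0.000502). TNFRSF19, a TNF receptor family gene used as a WNT response gene, rose in KO1 (1.91, adjusted p = 0.00185), as did the receptors ROR1 (0.60, adjusted p = 0.00639) and FZD9 (0.97, adjusted p = 0.0404). The FZD9 call was lost without any 1 of the 6 libraries (adjusted p up to 0.127), with no count filter (adjusted p = 0.0739) and with the replicate block (adjusted p = 0.0727).

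In KO2 the largest fall was that of SFRP1, a secreted protein that binds WNTs, from 13.0 to 0.478 CPM (-4.74 ± 0.18 SE, adjusted p = 1.87e-09, edgeR). SFRP1 also fell in KO1 (-1.29, adjusted p = 1.13e-05), less than in KO2 (difference 3.44, adjusted p = 5.02e-09). ROR2, a receptor for WNT5A, fell in KO2 (-1.38, adjusted p = 1.94e-06) and rose in KO1 (0.38, adjusted p = 0.00269), and that difference passed its own test (1.76, adjusted p = 1.65e-07). PYGO1, a nuclear cofactor of beta-catenin, fell in KO2 (-0.72, adjusted p = 0.00579), which became -0.47 without KO2 replicate 3 and was not called with all libraries in one fit (adjusted p = 0.0543). ROR1 rose in KO2 as well (0.72, adjusted p = 0.00312), and so did DVL1, which relays the signal from Frizzled (0.42, adjusted p = 9.5e-05). CTNNB1, which encodes beta-catenin, rose in both knockouts, by 0.31 in KO2 (from 375 to 453 CPM, adjusted p = 4.81e-06) and by 0.25 in KO1 (adjusted p = 0.000714).

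By role, and with the genes described above included, of 15 receptors and co-receptors tested 4 rose and 6 fell in KO1, and 3 rose and 7 fell in KO2. Of 13 TCF/LEF factors and cofactors 1 rose and 6 fell in KO1, against 3 and 4 in KO2. Of 14 destruction complex, dishevelled and beta-catenin genes 3 rose and 4 fell in KO1, whereas 6 rose and 1 fell in KO2. Of 13 ligands tested in KO1, 2 rose and 6 fell, and in KO2 2 of 14 rose and 3 fell. Beside these counts, 17.9% of all genes tested rose and 18.2% fell in KO1, and 19.3% and 19.2% in KO2.

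With ANKRD10-2 overexpression, the corepressor TLE1 rose from 44.2 to 66.4 CPM (log2 fold change 0.67, adjusted p = 8.96e-07, edgeR), and it rose with ANKRD10-1 as well (0.40, adjusted p = 0.000422). TLE1 also rose after siANKRD10-2 (0.30, adjusted p = 0.0028), a call kept in all 11 alternatives, and in KO1 (0.21, adjusted p = 0.0137), where it was lost without WT1 replicate 2 or 3 (adjusted p up to 0.0566). ANKRD10-2 was above ANKRD10-1 for TLE1 in their direct comparison (0.27, adjusted p = 0.0104), a call lost without ANKRD10-1 replicate 1 (adjusted p = 0.0959) or 3 (adjusted p = 0.0523). TNFRSF19 (0.94, adjusted p = 0.0368) and AXIN1, the scaffold of the destruction complex (0.31, adjusted p = 0.00465), also rose with ANKRD10-2, the first of them not without ANKRD10-2 replicate 1 or 2 or Vector replicate 2 or 3 (adjusted p up to 0.146), nor with all libraries in one fit (adjusted p = 0.0615). RSPO3, which potentiates WNT signals, fell (-1.34, adjusted p = 0.0149), from 1.17 to 0.430 CPM, a call lost without ANKRD10-2 replicate 2 (adjusted p = 0.0509) or Vector replicate 1 (adjusted p = 0.0823). DVL1 was the other gene called with ANKRD10-1 (0.24, adjusted p = 0.0476), but not without ANKRD10-1 replicate 2 or 3 or Vector replicate 1 or 2 (adjusted p up to 0.175), nor with all libraries in one fit (adjusted p = 0.0731).

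After siANKRD10-2, PYGO2, a cofactor of beta-catenin, rose from 22.6 to 41.6 CPM (log2 fold change 0.86, adjusted p = 1.27e-10, edgeR), whereas its paralogue PYGO1 fell (-0.49, adjusted p = 0.000245). NKD1, which binds dishevelled, rose (0.57, adjusted p = 0.0402), a call lost with DESeq2 (adjusted p = 0.0612) and without siNC replicate 2 or 3 or siANKRD10-2 replicate 1 or 2 (adjusted p up to 0.173). PORCN, the enzyme that attaches the lipid to WNT proteins, fell from 28.5 to 17.5 CPM (-0.73, adjusted p = 1.2e-07), and ROR2 fell (-0.70, adjusted p = 0.0164), which was lost without siNC replicate 2 or 3 or siANKRD10-2 replicate 2 (adjusted p up to 0.0796).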

How the data were processed

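RNA-seq libraries of 5637 cells were made with a stranded mRNA kit per the labels. The authors name trimming with Cutadapt and Trimmomatic, alignment with HISAT2 and expression by StringTie, whereas the submitters' processing notes list Trimmomatic 0.36, featureCounts, Subread 1.5.1 and GRCh38. The deposited values are raw read counts per gene, whole numbers without normalization, and the strand setting of the counting is not given in the sources used here. Counts from 1 to 20 were even in 47.0% of cases in the knockout table, 67.8% in the overexpression table and 73.4% in the knockdown table, so single counts in the latter tables are not independent fragments.

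Knockout rows were matched by Ensembl identifier and the others by symbol. Each treated group was compared with its own control by edgeR 4.0.16 in R 4.3.3 (filterByExpr with minimum count 10 and minimum total 15, TMM, quasi-likelihood test, Benjamini-Hochberg adjustment over all genes tested, threshold 0.05, prior count 0.125), with the 6 libraries of both groups. A difference between knockout effects used all 12 libraries. Standard errors were taken from the fold change and the F statistic. CPM is the count scaled to a library total of 1000000, and RPKM divides it by exon length. The lengths are those of the overexpression table, also for the knockout and knockdown libraries. Likeness to WNT11 is Pearson's r of log2(CPM + 0.5) minus the library's control mean, among genes of at least 1 CPM in each table. The fit was tested on simulated counts.

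The genes, lists, naming rule and alternatives were chosen with earlier results of these data known. Named pathway genes are up to 3 with the largest rise and 3 with the largest fall per comparison among those called with at least 1 CPM. The alternatives were DESeq2 size factors, no count filter, the replicate number as a block, DESeq2 1.42.0, all libraries of a table in one fit, all 6 WT libraries as control, and leaving out each library. Nothing says that replicates were separate cultures, so p-values measure the spread between these libraries, which may be technical. Replicates of a group differed by more than sampling noise (chi-square per gene 3.71 to 16.7). Promoters are from RefSeq, and gene positions and overlaps from GENCODE v29. Its gene starts and ends equal those in the overexpression table for all 10 genes. The exon models are not all the same, since WNT5A has 7531 exon bases in that table and 7397 in GENCODE v29.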

Additional observations from a re-analysis of the deposited data

Results flagged for a closer look

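For 5 of the 10 genes the effect of one RBPMS knockout differed from that of the other by a direct test (edgeR, effect of KO1 against WT1 minus effect of KO2 against WT2, 12 libraries). On the log2 scale the difference was -0.84 for WNT5A (adjusted p = 1.15e-06; -0.77 in KO1 and 0.07 in KO2). It was -0.41 for WNT7A (adjusted p = 0.000746), which was 0.30 higher in KO1 and 0.71 higher in KO2. For WNT7B it was -0.59 (adjusted p = 0.00209; 0.33 and 0.92). For WNT10A it was 1.54 (adjusted p = 0.000167), with a fall of -0.85 in KO1 and -2.39 in KO2. For DKK1 it was -1.36 (adjusted p = 5.45e-08; -0.01 and 1.35). Each of these 5 calls held in all 16 alternatives tried. All of these alternatives kept WT1 as the control of KO1 and WT2 as that of KO2, so none used a common control.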

How the results depend on the processing

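Of the alternative values for the counts of genes called and for the WNT11 difference, 161 stayed within their limits and 23 moved. The count for ANKRD10-2 against Vector, 1 of 8, became 0 with DESeq2 size factors and 2 with no count filter, with the replicate block and with all libraries of the table in one fit, and ranged from 0 to 1 with a library left out. ANKRD10-2 against ANKRD10-1 ranged from 0 to 1, and WNT11 after siANKRD10-1 from 1.11 (without siNC replicate 1) to 1.32. For the other pathway genes, the count of 2 with ANKRD10-1 became 4 with no count filter and 1 with all libraries in one fit. With a library left out it was 1 to 3 with ANKRD10-1, 6 to 13 with ANKRD10-2, 2 to 5 (of 6) for ANKRD10-2 against ANKRD10-1 and 12 to 21 after siANKRD10-2. Leaving out a library changed the number of all genes called by over 1.5 times in the overexpression table only among the tested comparisons. It gave 700 to 1549 (1291 with all libraries) for ANKRD10-1 against Vector, lowest without ANKRD10-1 replicate 1 or 2 or Vector replicate 1 or 2. For ANKRD10-2 against Vector it gave 2617 to 3533 (of 4017), lowest without Vector replicate 1 or 2, and for ANKRD10-2 against ANKRD10-1 694 to 1396 (of 1455), lowest without any 1 of the ANKRD10-1 libraries or ANKRD10-2 replicate 3.

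Replicate numbers did not pair the libraries (r of deviations -0.11 to 0.23, in 0 of 8 comparisons above 0.1 for each number). In 2 of 8 every library correlated best with its own number. With the replicate block the count in KO1 was 5 and in KO2 6.

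Among 1683 alternative values of single genes 27 changed sign, none of them for a called gene. With all 6 WT libraries as control DKK1 in KO1 became 0.23, WNT5A in KO2 -0.0581 and TCF7 in KO2 0.0414. Leaving out a library gave -0.0354 to 0.0121 for DKK1 in KO1 and -0.0264 to 0.0879 for WNT5A after siANKRD10-2. With ANKRD10-1 it gave -0.0536 to 0.16 for WNT7A and -0.20 to 0.0261 for DKK1, and with ANKRD10-2 -0.22 to 0.18 for WNT11, -0.0772 to 0.27 for LEF1 and -0.0236 to 0.12 for TCF7. ANKRD10-2 against ANKRD10-1 gave -0.46 to 0.0034 for WNT11, -0.10 to 0.0538 for WNT7B and -0.25 to 0.0436 for LEF1, and the KO1 and KO2 difference for WNT11 -0.0808 to 0.21. The causes were not tested. Low counts limit AXIN2 in every table, RNF43 in the knockout table and WNT10A in the other tables.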

Other observations

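The planar cell polarity genes, which orient cells within an epithelium and act in the branch of WNT signalling without beta-catenin, were all tested. In KO1 1 of 10 rose and 5 fell, and in KO2 2 rose and 4 fell (edgeR, adjusted p under 0.05). Of all genes tested, 17.9% rose and 18.2% fell in KO1, and 19.3% and 19.2% in KO2, so 2 of 10 higher in KO2 is at that rate. CELSR3, an adhesion receptor of this branch, fell in KO1 (log2 fold change -0.27, adjusted p = 0.0152) and KO2 (-0.50, adjusted p = 3.19e-05), and so did PRICKLE2 (-0.50, adjusted p = 0.0455, and -0.57, adjusted p = 0.0416). The CELSR3 call in KO1 was lost without WT1 replicate 1 or 2 (adjusted p up to 0.0591). That of PRICKLE2 was lost in KO1 without KO1 replicate 1 or 2 or any 1 of the WT1 libraries (adjusted p up to 0.13). With all KO1 libraries kept it was lost with no count filter (adjusted p = 0.0847), the replicate block (0.0513), all libraries in one fit (0.0523) and all 6 WT libraries as control (0.0509), and thus in 9 of 12 alternatives. In KO2 it was lost without KO2 replicate 1 or 3 or WT2 replicate 1 or 3 (adjusted p up to 0.211) and with no count filter (adjusted p = 0.0868). DAAM1, a formin that acts on actin, fell in KO1 (-0.51, adjusted p = 2.87e-05) and rose in KO2 (0.30, adjusted p = 0.000275).

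With ANKRD10-2 overexpression 0 of 10 of these genes rose, beside 10.7% of all genes, and 3 fell, beside 9.25%, namely CELSR2 (-0.58, adjusted p = 1.84e-05), CELSR3 (-0.37, adjusted p = 0.00906) and PRICKLE2 (-0.68, adjusted p = 0.0277). After siANKRD10-2 3 of 10 rose, beside 17.6% of all genes, and 0 fell, beside 18.7%. Those that rose were PRICKLE1, from 11.7 to 22.2 CPM (0.90, adjusted p = 9.35e-09), CELSR3 (0.23, adjusted p = 0.047) and DAAM1 (0.16, adjusted p = 0.0207). With ANKRD10-2, the call of CELSR3 was lost without Vector replicate 1 (adjusted p = 0.0549) and PRICKLE2 without ANKRD10-2 replicate 1 or 3 or Vector replicate 1 or 2 (adjusted p up to 0.13). After siANKRD10-2, CELSR3 was lost in 8 of 11 alternatives, namely without siNC replicate 2 or 3 or siANKRD10-2 replicate 2 or 3 (adjusted p up to 0.217) and with no count filter, the replicate block, DESeq2 or all libraries in one fit (adjusted p from 0.0502 to 0.0789), and DAAM1 without siNC replicate 2 or any 1 of the siANKRD10-2 libraries (adjusted p up to 0.116). CELSR3 and DAAM1, PRICKLE2 in KO1 and KO2, and TLE1 in KO1 and after siANKRD10-2 were named after their values were seen.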
